A study of Mus musculus with 4 samples.

Results

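The adult globin genes are Hbb-bs and Hbb-bt, which encode beta chains, and Hba-a1 and Hba-a2, which encode alpha chains. They were chosen by symbol, with their levels in these libraries known, and are 4 of the 32285 genes counted in the files. Their levels are therefore given as a description. Their transcripts were followed in 4 single-cell libraries of mouse bone marrow, made with a 10x Genomics kit for transcript 5′ ends from CD45.2+ cells taken 10 weeks after transplantation. CD45.2 is an allele of a leukocyte antigen by which grafted cells can be told from those of a recipient. Among Kit+ cells there were 3 libraries, labelled control, Mll3/4 deleted and Mll3/4SI (SI below), and a further control library held B220lo cells. Kit is a surface receptor of stem cells and early progenitors, B220 is a surface form of CD45 on B-lineage cells, and Mll3/4 stands for Kmt2c and Kmt2d, which encode histone methyltransferases. The labels do not expand SI, name no strain, promoter or Cre line, and do not say how many mice entered a library. With 1 library per group no difference was tested, and every interval is a 95% interval that covers counting error only, not the spread between mice or between cells. Where 0 was counted, the limit given is 3 counts of the total, a separate bound from these intervals.

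Hemoglobin is built from alpha and beta chains in equal numbers around heme, and red cell precursors raise both kinds of globin transcript together in the last divisions before the nucleus is lost. Adult beta globin is switched on from a distant control region by KLF1, GATA1 and their partners. Hbb-bs and Hbb-bt are the beta genes of the single haplotype carried by C57BL mice. Kit+ erythroid progenitors stand before this rise, and globin RNA from broken red cells is a common source of free transcripts in droplets of any cell type.

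The cells of interest carried at least 3 UMIs (counted transcript molecules) of Klf1, the erythroid master regulator, and at least 10 of Car1, an early erythroid carbonic anhydrase. This erythroid gate held 1491 control Kit+, 33 deleted, 644 SI and 15 control B220lo cells. Of 11 erythroid markers, all but the late anion exchanger Slc4a1 stood above 10 CPM (counts per 1000000 UMIs of the gate) in the control, deleted and SI gates. Slc4a1 was at 0 in these 3. Klf1 and Car1 are among the 11, and the gate itself required them. Cells with at least 10 UMIs of the granulocyte elastase Elane, or at least 3 of the B-cell receptor subunit Cd79a, served as the level of carried-over RNA. The Elane gate held 4620 control Kit+, 465 deleted, 3634 SI and 73 control B220lo cells, and the Cd79a gate held 41, 13541, 27 and 11613 cells in the same order. Cells that met more than 1 of these gates were left out, 251 of them in the control Kit+ library and 59 in the SI library. The Elane and Cd79a gates also left out every cell with at least 3 Klf1 UMIs, whatever its Car1 count.

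Hbb-bs (ENSMUSG00000052305) lies on chromosome 7 from 103826534 to 103828096 and Hbb-bt (ENSMUSG00000073940) from 103812524 to 103813996, both on the minus strand. Hba-a1 (ENSMUSG00000069919) lies on chromosome 11 from 32283511 to 32284465 and Hba-a2 (ENSMUSG00000069917) from 32296489 to 32297298, both on the plus strand. These are GENCODE M21 positions on GRCm38, the assembly that mm10, named in the submitters' processing notes, stands for. The promoters are shown because Hbb-bs and Hbb-bt parted in the cells described here, and that of Hba-a1 for comparison. All 4 genes were found in the RefSeq promoter table (GRCm38.p6). The 130 bases before the start are printed 5′ to 3′ on the gene's strand, for Hbb-bs at chr7:103827929-103828058 and for Hbb-bt at chr7:103813924-103814053 (minus), and for Hba-a1 at chr11:32283542-32283671 (plus). Capitals mark 4 motifs on either strand: CACCC (the kind of box that KLF1 binds), CCAAT (the box of the factor NF-Y), GATA (the core that GATA1 binds) and ATAAA (part of a TATA box). A CCAAT on the other strand reads ATTGG, and neighbouring matches run together.
Hbb-bs: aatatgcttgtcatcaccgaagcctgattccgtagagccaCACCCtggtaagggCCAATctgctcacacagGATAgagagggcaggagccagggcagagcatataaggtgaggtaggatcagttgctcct
Hbb-bt: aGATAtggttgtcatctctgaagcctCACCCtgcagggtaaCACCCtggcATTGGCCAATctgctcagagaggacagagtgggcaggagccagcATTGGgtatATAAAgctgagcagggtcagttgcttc
Hba-a1: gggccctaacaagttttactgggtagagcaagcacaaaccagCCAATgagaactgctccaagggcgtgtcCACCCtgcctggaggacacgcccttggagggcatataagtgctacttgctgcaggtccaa

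The Hbb-bs and Hbb-bt promoters were identical at 74.05% of aligned positions, and the Hba-a1 and Hba-a2 promoters at 95.49%. Within these 130 bases CACCC and CCAAT were present in all 4 genes, GATA in 2 and ATAAA in 1. Over all 32851 promoters of the table, 33.69% held CACCC, 22.39% CCAAT, 31.68% GATA and 21.56% ATAAA in the same window. A match is a description of the sequence only. The paired genes are also alike in their transcripts. Of all stretches of 90 bases, 63.27% of those in Hbb-bs occurred in Hbb-bt and 55.54% the other way, and 58.85% of those in Hba-a1 occurred in Hba-a2 and 77.2% the other way. No such stretch was shared between an alpha and a beta gene. How the authors' counting treated reads from shared stretches is not given in the sources used here, so the split within a pair, and the level of alpha against beta, are uncertain. Counts of several genes given for 1 set of cells describe how UMIs were assigned there, and differences are read between sets of cells counted the same way.

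In the erythroid gate the 4 genes together stood at 46.7 CPM (44.4 to 49.1) in the control Kit+ library and at 415 CPM (405 to 425) in the SI library. The deleted library was the lowest at 4.38 CPM (1.19 to 11.2), and the control B220lo library the highest at 5091 CPM (4908 to 5279). SI cells thus stood 8.88-fold (8.40 to 9.39) above control Kit+ cells, or 3.12 as a log2 ratio with 1 CPM added to each level. The deleted value rested on 4 UMIs, a ratio of 0.0938 (0.0255 to 0.241) to the control. Levels this low were a small part of the cells' RNA, and the median cell had 0 adult globin UMIs in the control, deleted and SI gates.

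Nearly all of the counts were assigned to the beta genes. Hbb-bs, the upstream beta chain gene, stood at 19.6 CPM (18.1 to 21.2) in the control and at 372 CPM (362 to 382) in the SI library, with 2.19 CPM (0.265 to 7.92) from 2 UMIs in the deleted library. Hbb-bt, the beta chain gene downstream of it, stood at 24.2 CPM (22.5 to 25.9) in the control and at 40.4 CPM (37.3 to 43.8) in the SI library, again with 2 UMIs in the deleted library. In the control B220lo library they stood at 3389 CPM (3240 to 3543) and 1509 CPM (1411 to 1613). Hbb-bs therefore differed 18.98-fold (17.5 to 20.6) between SI and control, and Hbb-bt 1.67-fold (1.50 to 1.86).

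The alpha genes were not above the control in SI cells. Hba-a1, an alpha chain gene, stood at 2.45 CPM (1.95 to 3.04) in the control Kit+ and at 2.17 CPM (1.50 to 3.05) in the SI library, a ratio of 0.885 (0.573 to 1.34). Hba-a2, the alpha chain gene beside it, was at 0.503 CPM (0.293 to 0.805) and 0.198 CPM (0.0407 to 0.577), the latter from 3 UMIs, a ratio of 0.393 (0.0738 to 1.36). In the control B220lo library Hba-a1 stood at 162 CPM (130.4 to 197.9) and Hba-a2 at 31.3 CPM (18.5 to 49.4). Both SI to control intervals include a ratio of 1. Deleted cells had 0 UMIs of both alpha genes, which allows up to 3.29 CPM, so a control-like level was not detectable at that depth.

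Of the 4 genes, Hbb-bs and Hbb-bt reached 100 UMIs in the higher library, and Hbb-bs alone was at least 2-fold higher in SI cells on the log2(CPM + 1) scale, where it stood at 4.18 and Hbb-bt at 0.72. Of 9446 genes at that depth, 1.12% were at least 2-fold higher and 0.455% at least 2-fold lower. Both beta genes were at least 2-fold lower in deleted cells, at −2.69 and −2.98. There 9.16% of 6330 genes were at least 2-fold lower and 0.0158% at least 2-fold higher. The deleted gate held 912615 UMIs and the control gate 33817392. The rule of 100 UMIs in the higher library therefore let genes lower in deleted cells pass more easily, and these shares lean toward lower. The choice of these genes had used these contrasts, so nothing is read from the counts.

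**Figure D1:**
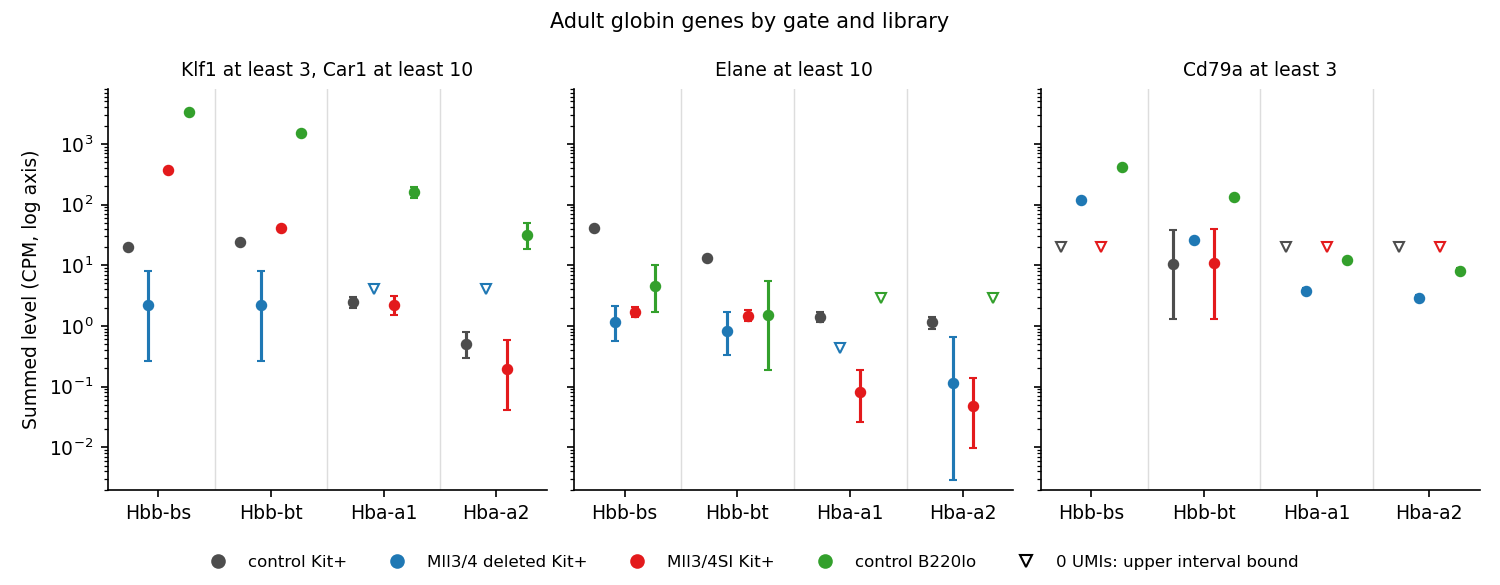
Summed level of each adult globin gene (CPM, log axis) in the erythroid, Elane and Cd79a gates of the 4 libraries, with 95% counting intervals; open triangles are upper bounds where no UMI was counted. In the erythroid gate SI cells stood above control Kit+ cells for Hbb-bs (372 against 19.6 CPM) and not for Hba-a1 (2.17 against 2.45 CPM).

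The SI excess lay in few cells. In the SI gate 14 of 644 cells held at least 100 adult globin UMIs, 2.17% (1.19 to 3.62), and they carried 88.5% of all adult globin UMIs of the gate. No control Kit+ cell of 1491 reached 100, which allows a share of up to 0.201%, and the highest in the gate had 76. At 20 UMIs or more there were 24 SI cells, 3.73% (2.40 to 5.49), against 12 control cells, 0.805% (0.417 to 1.40). The 24 SI cells carried 94.7% of the gate's adult globin UMIs and the 12 control cells 31.6%.

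At the low end the order was the other way. Cells with any adult globin UMI made up 31.9% (29.5 to 34.3) of the control gate and 25.8% (22.4 to 29.3) of the SI gate, at median depths of 22057 and 22813 UMIs. When every cell was thinned to 2000 UMIs, the shares were 6.24% (5.06 to 7.59) and 6.83% (5.01 to 9.06), with no cell left out and intervals that overlap. The thinned share with at least 5 UMIs was 0.201% in control and 2.48% in SI cells, so the difference in the cells of high counts was present at matched depth. By gene, the thinned share with a UMI of Hbb-bs was 4.503% (3.04 to 6.40) in SI and 3.09% (2.27 to 4.09) in control cells, and that of Hbb-bt 2.95% (1.79 to 4.57) and 3.35% (2.50 to 4.397). Without the cells of 100 or more, the SI level was 48.8 CPM and the log2 ratio to the control 0.0603. Just inside the limit of 100 lay SI cells with 103 and 124 UMIs, and just outside it cells with 83 and 63. Without the cells of 20 or more in both libraries, the levels were 23.0 CPM in SI and 32.3 CPM in control cells, and the log2 ratio turned to −0.47. In these remaining cells Hbb-bs stood at 11.04 CPM (9.39 to 12.9) in SI and 13.2 CPM (12.02 to 14.5) in control cells, and Hbb-bt at 10.7 CPM (9.07 to 12.5) and 17.0 CPM (15.6 to 18.45).

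**Figure D2:**
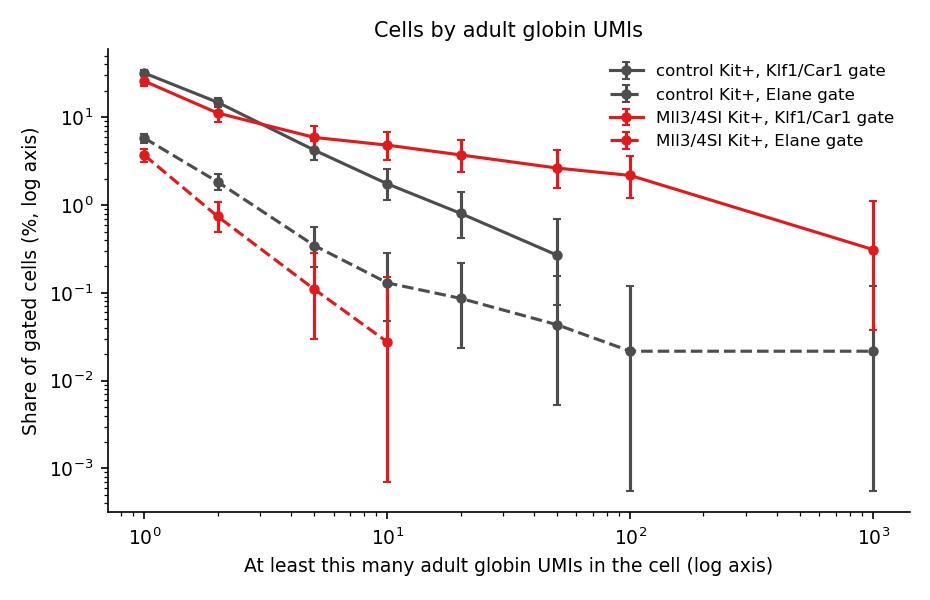
Share of gated cells (%, log axis) with at least the number of adult globin UMIs on the x axis (log axis), for the erythroid gate (solid lines) and the Elane gate (dashed lines) of control Kit+ and SI cells, with exact binomial intervals. The SI erythroid line ends far to the right of the control line, with 2.17% of cells at 100 UMIs or more, while it lies lower at 1 UMI (25.8% against 31.9%).

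These SI cells were almost pure in Hbb-bs. The 14 cells of 100 or more held 5188 UMIs of Hbb-bs, 380 of Hbb-bt, 9 of Hba-a1 and 0 of Hba-a2. The cell with the most had 1253 UMIs of Hbb-bs, 5 of Hbb-bt and 0 of both alpha genes in a total of 27110 UMIs. Another had 729 of Hbb-bs and 1 of Hbb-bt, and a further cell 598 and 3, again with no alpha UMI. In 6 of the 14 cells no Hbb-bt was counted, as in a cell with 214 UMIs of Hbb-bs and none of the other 3 genes.

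Hbb-bt was present at length in a few of them. One cell had 883 UMIs of Hbb-bs, 263 of Hbb-bt and 1 of Hba-a1, and another had 293 and 81 with no alpha UMI. Among the 24 SI cells of 20 or more, Hbb-bs made up at least 90% of beta UMIs in 17. At the other end, 2 cells had no Hbb-bs at all, with 28 and 20 UMIs of Hbb-bt.

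Control Kit+ cells of the same gate were mixed. Their 12 cells of 20 or more held 221 UMIs of Hbb-bs, 249 of Hbb-bt, 24 of Hba-a1 and 6 of Hba-a2. The highest had 29 of Hbb-bs, 45 of Hbb-bt and 1 of each alpha gene. Hbb-bs made up at least 90% of beta UMIs in 1 of the 12 cells, with 59 UMIs against 3, and below 10% in 2, with 2 against 42 and 0 against 26. The median share of Hbb-bs among beta UMIs was 48.8% in these 12 cells and 97.2% in the 24 SI cells, whose range ran from 0 to 100%.

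**Figure D3:**
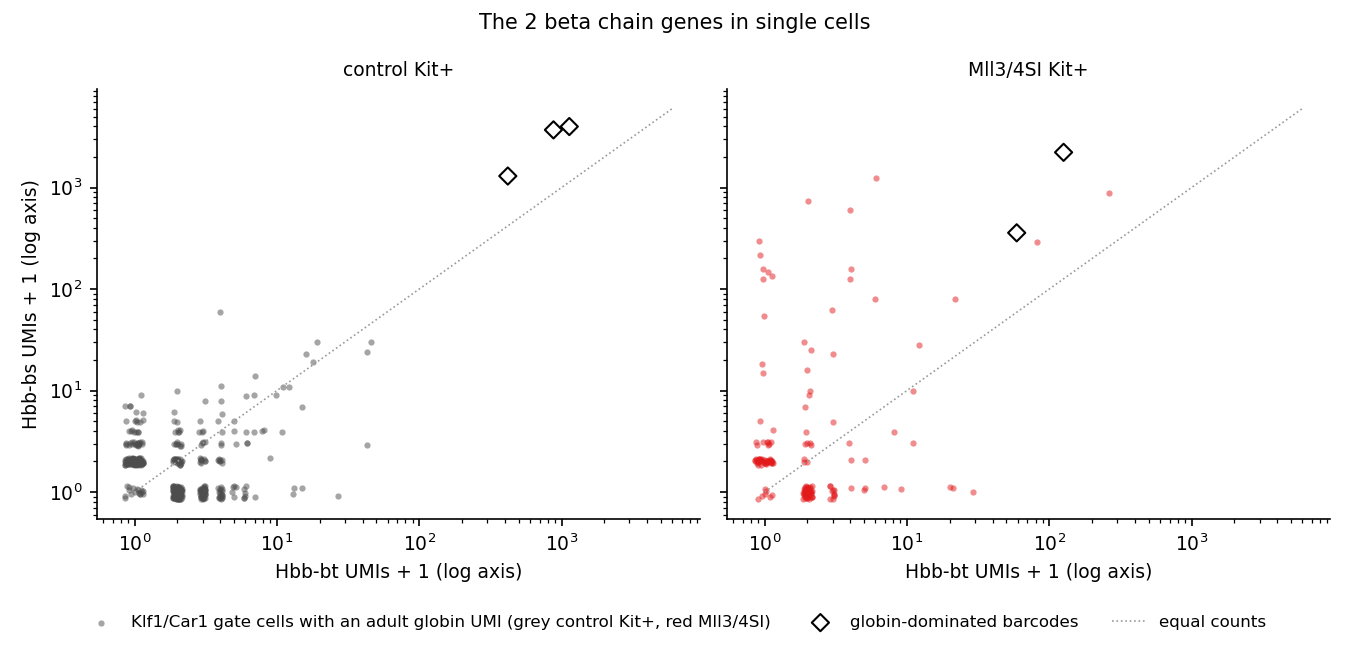
Hbb-bs UMIs (y axis) against Hbb-bt UMIs (x axis) per cell, both plus 1 on log axes and with points spread slightly for sight, in control Kit+ and SI cells of the erythroid gate with at least 1 adult globin UMI; diamonds are barcodes of the same library whose adult globin UMIs number at least 100 and make up at least 10% of all their UMIs. SI cells run up the left side, to 1253 Hbb-bs UMIs beside 5 of Hbb-bt, while control cells lie on both sides of the dotted line of equal counts, among them cells with 59 of Hbb-bs beside 3 of Hbb-bt and 2 beside 42.

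Summed over cells, the makeup set the high SI cells apart from the other sets of both erythroid gates. Hbb-bs made up 92.3% (91.6 to 92.9) of beta UMIs and the alpha genes 0.302% (0.179 to 0.476) of adult globin UMIs in the 24 SI cells. In the 12 control cells the shares were 47.0% (42.4 to 51.6) and 6.0% (4.08 to 8.45). The SI shares rest mostly on the 14 cells of 100 or more, which held 88.5% of the gate's adult globin UMIs. No control cell reached 100, so the summed shares compare cells of unlike counts. At counts nearer to the control, SI gate cells of 21 to 83 UMIs had 0 to 3 alpha UMIs each. Their shares of Hbb-bs among beta UMIs were 94.0, 96.8, 100, 71.1, 96.7, 0, 96.0, 91.7, 47.4 and 0%, from the most UMIs to the fewest. The 12 control cells, of 20 to 76 UMIs, had 0 to 8 alpha UMIs each and Hbb-bs shares from 0 to 95.2%. No alpha UMI was counted in 10 of these 14 SI cells, in 14 of the 24 and in 3 of the 12 control cells. In cells with 1 to 19 UMIs the libraries were closer. Hbb-bs was 50.8% (45.1 to 56.5) of beta UMIs in SI and 43.8% (40.7 to 46.9) in control cells, and alpha UMIs were 5.44% (3.25 to 8.46) and 6.48% (5.09 to 8.12).

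Barcodes full of globin transcripts, most of them in the control B220lo library, gave a comparison. Barcodes with at least 100 adult globin UMIs that made up at least 10% of all their UMIs are called globin-dominated here. There were 42 in the control B220lo, 8 in the deleted, 3 in the control Kit+ and 2 in the SI library, and those 3 lay outside the cell filter. Hbb-bs made up 76.1% (75.9 to 76.3) of their beta UMIs in the control B220lo, 82.6% (82.1 to 83.2) in the deleted, 78.7% (77.97 to 79.5) in the control Kit+ and 93.4% (92.4 to 94.3) in the SI library. Their alpha share was 3.10% (3.02 to 3.17), 4.21% (3.95 to 4.49), 5.05% (4.66 to 5.45) and 6.02% (5.19 to 6.95). The SI barcodes thus had the high Hbb-bs share of the 24 SI gate cells, but not their near lack of alpha UMIs. In the SI library 1 barcode, with 2221 UMIs of Hbb-bs and 125 of Hbb-bt, held 2479 of the 2938 adult globin UMIs, and the other had 357 and 58. Both lay in no gate, with Scrublet doublet scores of 0.277 and 0.253, above the limit of 0.25 used here.

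Among the globin-dominated barcodes of the control B220lo library, 11 had at least 3 Klf1 UMIs and less than 10 of Car1, counting those that passed the cell filter and lay outside the Elane and Cd79a gates. In these 11 the adult globins made up 32.6% to 60.9% of UMIs, and 13 to 37 UMIs were counted of Alas2, the erythroid enzyme that starts heme synthesis. The erythroid gate of that library held 2 cells with globin counts like the highest SI cells. One had 939 UMIs of Hbb-bs, 477 of Hbb-bt, 57 of Hba-a1 and 7 of Hba-a2, with 11 of Alas2 and 23 of Slc4a1. The other had 956, 367, 30 and 9, with 6 of Alas2 and 26 of Slc4a1. In the 14 SI cells of 100 or more, Alas2 and Slc4a1 were at 0 in every cell. The 2 cells made up most of the control B220lo gate level: without its 4 cells of 20 or more, 11 cells stood at 48.1 CPM (29.8 to 73.5).

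**Figure D4:**
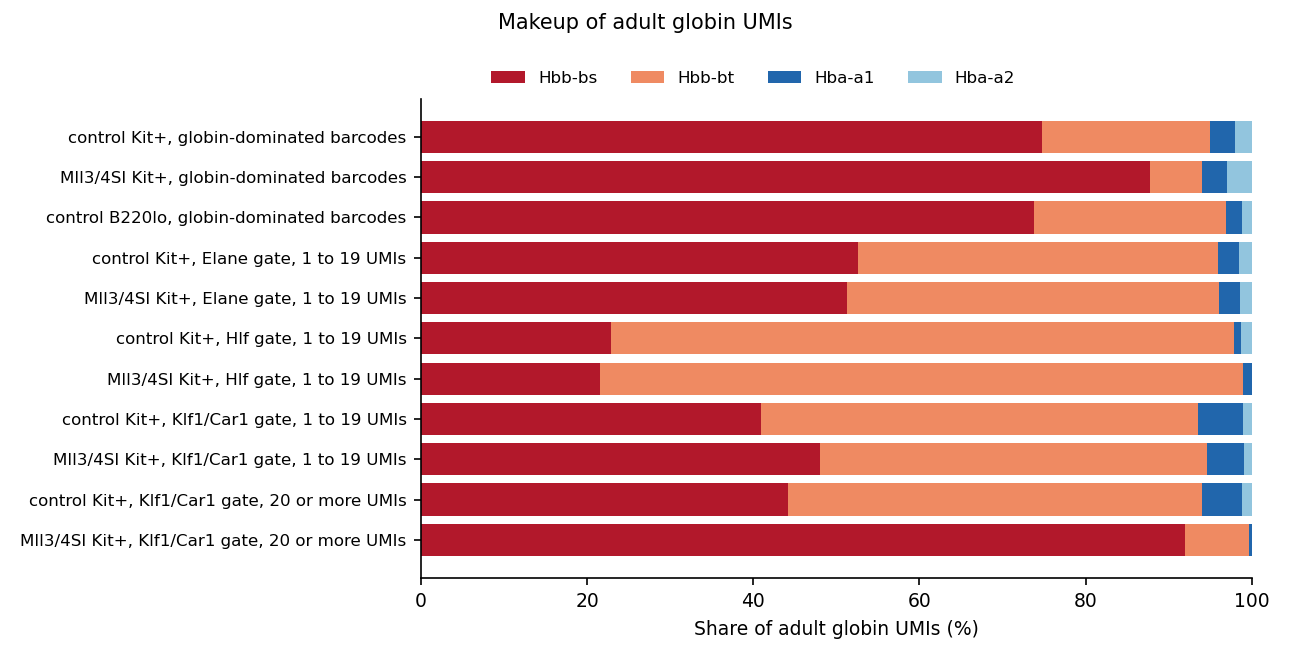
Share of adult globin UMIs (%) that each of the 4 genes held, by library and set of cells, where 1 to 19 and 20 or more are adult globin UMIs per cell. The bottom bar, SI erythroid gate cells of 20 or more, is almost all Hbb-bs, with alpha genes at 0.302%, against 6.0% in the control bar above it. Most UMIs of the bottom bar come from cells of 100 or more adult globin UMIs, which the control gate lacks.

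Carry-over was low in SI cells. In the Elane gate the 4 genes summed to 3.29 CPM (2.85 to 3.77) in the SI, 2.08 CPM (1.23 to 3.29) in the deleted and 6.16 CPM (2.66 to 12.1) in the control B220lo library. The control Kit+ value was 57.0 CPM (55.3 to 58.8), but a single barcode with 435 Elane UMIs held 3541 of its 4109 adult globin UMIs. Without it the control Kit+ Elane gate stood at 7.89 CPM (7.25 to 8.57). That barcode, with 2640 UMIs of Hbb-bs, 743 of Hbb-bt, 85 of Hba-a1 and 73 of Hba-a2, had the balance of Hbb-bs and Hbb-bt seen in the globin-dominated barcodes of its library.

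By gene, the Elane gates stood at 1.68 CPM (1.38 to 2.04) of Hbb-bs and 1.48 CPM (1.19 to 1.81) of Hbb-bt in the SI library, and at 4.46 CPM (3.99 to 4.98) and 3.08 CPM (2.69 to 3.52) in the control Kit+ library without that barcode. Hba-a1 was at 0.0802 CPM (0.0260 to 0.187) and 0.222 CPM (0.127 to 0.361), and Hba-a2 at 0.0481 CPM (0.00992 to 0.141) and 0.125 CPM (0.0572 to 0.237). All 4 levels were thus lower in the Elane gate than in the erythroid gate of the same library, and the gap was widest for Hbb-bs in the SI library and within counting error for Hba-a2 there. In barcodes of at least 500 but under 1000 UMIs, which the cell filter left out, the 4 genes summed to 293 CPM (223.7 to 377.4) in the control Kit+, 16.4 CPM (1.99 to 59.3) in the deleted, 63.0 CPM (31.5 to 112.8) in the SI and 241 CPM (193 to 296.5) in the control B220lo library. In the control Kit+ library 1 barcode held 42 of the 60 UMIs, and without it the level was 88.2 CPM (52.3 to 139.4).

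Set against the Elane gate of their own library, the SI erythroid gate at 415 CPM and the control Kit+ erythroid gate at 46.7 CPM both stood higher. In the control this held once that barcode was left out. Set against barcodes under 1000 UMIs, the SI erythroid gate stood above the 63.0 CPM of its library. The control Kit+ erythroid gate stood below those of its own, at 293 CPM, or 88.2 CPM without their highest barcode. Subtracting the mean UMIs per Elane gate cell, with that barcode left out, gave a log2 ratio of SI to control of 3.29, and subtracting CPM gave 3.37. With the barcode kept, the subtraction of UMIs gave 5.60. No cell of the SI library in the Elane gate alone reached 20 adult globin UMIs, and the highest had 14. Among the SI cells left out because they met more than 1 gate, 3 with Elane counts of 116, 93 and 183 UMIs had 263, 183 and 22 adult globin UMIs, of which 230, 183 and 22 were of Hbb-bs. In the control Kit+ library 7 cells left out in this way had 20 or more, with 22 to 81 adult globin UMIs and 64 to 452 Elane UMIs. With such cells and other Elane cells of at least 3 Klf1 UMIs kept, the SI Elane gate stood at 10.9 CPM. The control Kit+ Elane gate then stood at 57.1 CPM.

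The share of cells with any adult globin UMI told the gates apart as well. It was 5.78% (5.12 to 6.49) of control Kit+ and 3.69% (3.10 to 4.35) of SI Elane gate cells, at median depths of 14787 and 16735 UMIs. Thinned to 2000 UMIs, the shares were 1.22% (0.922 to 1.58) and 0.525% (0.316 to 0.818), below the 6.24% and 6.83% of the erythroid gates. In the deleted erythroid gate 1 of 33 cells, 3.03% (0.0767 to 15.8), had a UMI after thinning, beside 0.216% (0.00546 to 1.19) of deleted Elane gate cells. Thinned to 5000 UMIs, the order was the other way, with 0 of 33 cells beside 0.664% (0.137 to 1.93), so the 33 cells gave no order between the gates. In Elane gate cells with 1 to 19 UMIs, again without cells of more than 1 gate, Hbb-bs made up 53.3% (46.1 to 60.4) of beta UMIs in the SI and 54.8% (49.9 to 59.6) in the control Kit+ library.

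The Cd79a gate held few cells of the control Kit+ and SI libraries. The control Kit+ library had 2 adult globin UMIs in 41 cells, 10.6 CPM (1.29 to 38.4), and the SI library 2 in 27 cells, 10.8 CPM (1.31 to 39.0), all of Hbb-bt. The deleted library, most of whose cells were in this gate, stood at 150.1 CPM (147.8 to 152.4) and the control B220lo library at 570.3 CPM (564.3 to 576.4). In the deleted library 8 barcodes held 16381 of 16631 UMIs, and 7 held 32910 of 34310 in the control B220lo library. Below 20 UMIs per cell the levels were 2.26 CPM (1.99 to 2.56) and 23.3 CPM (22.1 to 24.6). In those cells Hbb-bs made up 77.8% (71.8 to 83.0) of beta UMIs in the deleted and 65.7% (63.1 to 68.3) in the control B220lo library.

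Cells with at least 2 UMIs of Hlf, a stem cell transcription factor, had a lower share of Hbb-bs among beta UMIs than the Elane and erythroid gates. They met none of the other gates, which include at least 10 UMIs of Pf4 or Cpa3, and numbered 776 in the control Kit+ and 1020 in the SI library. Hbb-bt was at 27.1 CPM and Hbb-bs at 7.38 CPM in control cells, and at 14.8 and 8.78 CPM in SI cells. Among cells with 1 to 19 adult globin UMIs, Hbb-bs made up 23.3% (17.9 to 29.4) of beta UMIs in control and 21.7% (16.2 to 28.1) in SI cells. Cells of the Cpa3 gate stood at 23.6% (13.2 to 37.0) in the control Kit+ and 41.9% (35.0 to 48.98) in the SI library. Of 42 deleted cells with at least 2 Hlf UMIs and in none of the other gates, 1 had 46 UMIs of Hbb-bt and none of the other 3 genes.

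Klf1+ cells with fewer than 10 Car1 UMIs and outside the Elane and Cd79a gates numbered 114 in the control Kit+ and 104 in the SI library. Their adult globin level was 86.4 CPM (72.2 to 102.6) and 488.2 CPM (454.9 to 523.3). In the SI set 1 cell with 677 UMIs of Hbb-bs and 25 of Hbb-bt held 702 of 798 UMIs. It had no Car1 and a Scrublet doublet score of 0.498, above the 0.25 used here as a limit.

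Most of the high SI cells had high maturation scores. The score summed 16 membrane, iron and maturation genes that include no globin or gate gene, and was cut into tertiles of control Kit+ cells. Control levels of the summed adult globins were 19.2 CPM (16.4 to 22.3) in the lower, 20.3 CPM (17.7 to 23.1) in the middle and 86.6 CPM (81.7 to 91.7) in the upper tertile. SI levels were 45.9 CPM (39.8 to 52.8), 18.7 CPM (15.4 to 22.5) and 1220 CPM (1190 to 1252), and 22 of the 24 SI cells of 20 or more lay in the upper tertile. In the SI lower tertile 1 cell with 145 UMIs held most of the 199, and without it the level was 12.5 CPM (9.39 to 16.3), below the control. Without the 1 cell of 39 UMIs in the SI middle tertile, the level there was 12.2 CPM (9.56 to 15.4). All 12 control cells of 20 or more lay in the upper tertile. Scores ran from 996 to 3376 CPM in these 12 cells and from 0 to 2729 CPM in the 24 SI cells. The upper tertile held 26.9% of SI gate cells, and with tertiles weighted alike the log2 ratio was 3.32. The score has no gap, and 128 SI cells lay within 0.1 log2 units of a cut. Deleted cells had 1, 2 and 1 adult globin UMIs in the lower, middle and upper tertile. The part of maturation in the difference was not tested.

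**Figure D5:**
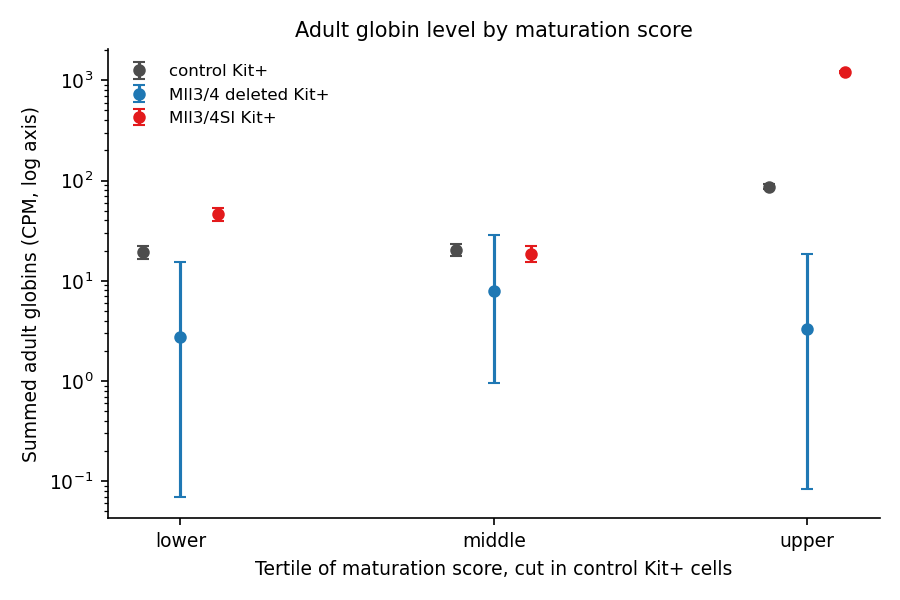
Summed adult globin level (CPM, log axis) by tertile of a maturation score without globins (x axis), for control Kit+, deleted and SI cells of the erythroid gate, with 95% counting intervals. The upper tertile is the highest in control (86.6 CPM) and SI cells (1220 CPM), the SI lower point rests mostly on 1 cell, and the deleted points rest on 1 or 2 UMIs each.

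Genes around hemoglobin were read from the same contrast of SI and control gates, where 1.12% of all genes compared were at least 2-fold higher and 0.455% lower, so 0 called in lists this short is near the background. Of 18 heme synthesis and iron genes, 16 reached 100 UMIs, 0 were 2-fold higher or lower, and their median log2 ratio was −0.12, beside −0.003 over all genes compared. Slc25a37, the mitochondrial iron importer, was the highest at 0.22 and the transferrin receptor Tfrc the lowest at −0.58. Of 6 genes for globin chaperones and translation in the files, all were compared and 0 were 2-fold different, with a median of −0.15 and Nudt4 the lowest at −0.33.

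All 19 globin regulators were compared, 0 were 2-fold different and the median was 0.02, from Klf3, a KLF1-induced repressor, at −0.30 to Nfe2, an activator that binds the beta globin control region, at 0.29. Klf1 was at −0.01, but the gate required it in every cell, so its level was partly set by the gate. Gata1 was at 0.05, and Bcl11a, which silences embryonic globins, at −0.11. Of 18 membrane and maturation genes 15 were compared. Of these 1 was 2-fold higher and 0 were 2-fold lower, and the median was −0.07, with metallothionein Mt2 the lowest at −0.50. Of the embryonic and minor globins, Hbb-y, Hbb-bh1, Hbb-bh2, Hba-x and Hbq1a had 0 UMIs in the SI gate and Hbq1b had 4, which gave no comparison.

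In deleted cells the same lists were read from 33 cells. Over all genes compared the median was −0.20, and 9.16% were at least 2-fold lower. Genes lower in deleted cells passed the rule for UMIs more easily, so these shares and medians lean toward lower. The regulators left out by that rule, Cbfa2t3, Epor, Tal1 and Zfpm1, all stood higher in deleted cells. None of 14 heme and iron genes was 2-fold different (median −0.19). Of 5 chaperone genes 1 was 2-fold lower (median −0.14). Of 15 regulators 1 was lower, Sox6, a repressor of embryonic globin, at −1.90 from 1 UMI. Of 14 membrane and maturation genes 2 were lower, Tspan33 at −1.11 and Trim10, which had 0 UMIs. For Trim10 this allows up to 3.29 CPM, above its control level of 3.08 CPM, so no difference was detectable.

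Within each library the cells of 20 or more adult globin UMIs were also compared with the others over these lists. This is a description of cells picked by their globin counts. Enough UMIs here means at least 5 in the high cells, counted or expected from the level of the others. A gene could thus pass through a high count in the high cells alone. Epb42 and Trim10 did so in SI cells, at 6 and 7 UMIs, and Trim10, Sox6 and Slc25a37 in control cells, at 15, 13 and 8. All are among the genes called higher below, so those counts lean upward. Over all genes with enough UMIs, 2.2% of 9119 in SI cells were at least 2-fold higher in the high cells and 6.78% lower, with a median log2 ratio of −0.05. In control cells 5.32% of 7839 were higher and 7.03% lower, with a median of 0.07. In SI cells 9 of 17 membrane and maturation genes with enough UMIs were 2-fold higher and 1 lower (median 1.0). In control cells these counts were 10 of 16 and 1 (median 1.39). Rhag, the Rh-associated membrane channel, was at 151 against 47.3 CPM in SI and at 186 against 62.2 CPM in control cells. Heme and iron genes were 2-fold higher for 3 of 16 in SI and 9 of 16 in control cells, and lower for 1 and 0, with medians of 0.65 and 1.15. Slc25a37 was at 1.27 against 8.75 CPM in SI cells, from 1 UMI in the high cells. In control cells it was at 20.7 against 6.88 CPM, from 8 UMIs in the high cells. Of 19 globin regulators 0 were 2-fold higher and 2 lower in SI cells (median 0.05), and 1 and 3 in control cells (median 0.33). Of 6 chaperone and translation genes 1 was 2-fold higher in SI and 2 in control cells, with 0 lower (medians 0.63 and 0.60). Median depth was 32139.5 UMIs in the high and 22735.5 in the other SI cells, and 34062.5 and 21998 in control cells.

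Granulocyte and mast or basophil markers stood higher in the SI gate than in the control gate. The 7 granulocyte markers summed to 653 CPM in SI and 294 CPM in control erythroid gate cells, with all 7 detected in both, and the 6 mast or basophil markers to 139 and 19.7 CPM, also all detected. Megakaryocyte markers went the other way, at 35.7 CPM in SI and 45.1 CPM in control cells. Differences were smaller for B-lineage (7.64 and 5.29 CPM), stem and progenitor (47.7 and 37.4 CPM) and monocyte markers (10.996 and 8.61 CPM). In the deleted gate the 8 B-lineage markers summed to 60.3 CPM, against 5.29 CPM in the control gate. Their part in the globin levels was not tested. In the 24 high SI cells Mpo stood at 172 CPM and Cpa3 at 39.3 CPM, below the 312 and 90.4 CPM of the other SI cells. Of the 24 cells, 1 had a Scrublet score of 0.25 or more.

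Genes whose level followed the adult globins were sought in 2 ways. Across 16 library-by-gate groups of at least 50 cells, the highest Pearson correlations of log2(CPM + 1) with the summed adult globins were those of Trib2 (0.88), Tent5c (0.88), Stard3nl (0.87), Ublcp1 (0.87) and Hdac7 (0.86), among 9303 genes. The groups share libraries, and some of their globin values rest on a few globin-dominated barcodes, as in the Cd79a gates. Across 1486 control Kit+ erythroid gate cells thinned to 5000 UMIs, the highest Spearman correlations were those of Rhd (0.20), Car2 (0.19), Fth1 (0.18), Rgcc (0.18) and C1qtnf12 (0.18). Correlations this weak in sparse counts are no finding.

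Across the whole series, total counts ran from 85445426 to 166327773 UMIs per library and median depth from 3272 to 12148 UMIs per barcode, and 214 to 345 barcode sequences were shared between pairs of libraries, 1 of them between the control Kit+ and SI erythroid gates. Over all barcodes, Kmt2c was at 58.5 CPM in control Kit+, 51.6 in deleted, 62.6 in SI and 147 CPM in control B220lo cells, and Kmt2d at 24.1, 19.97, 20.7 and 41.7 CPM. A 5′ count outside a deleted part does not check a deletion, and which exons were deleted is not in the labels. Ddx3y, Eif2s3y, Kdm5d and Uty, which lie on the Y chromosome, summed to 149 CPM in the deleted library and to at most 0.515 CPM in the others, so sex and genotype cannot be told apart in the deleted comparison.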

How the data were processed

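The authors deposited raw UMI counts for each gene in each barcode. Per the file headers they came from Cell Ranger 7.1.0, and the build was mm10, per the submitters' processing notes. Their cell calling preceded deposit. The deposited contig tables were not used. Barcodes were kept with at least 1000 UMIs, 500 genes and at most 10% mitochondrial UMIs. Gates were set on raw UMIs: Klf1 of at least 3 with Car1 of at least 10, Elane of at least 10, Cd79a of at least 3, Hlf of at least 2. Cells in more than 1 gate were left out. Cells with at least 3 Klf1 UMIs were also left out of the Elane and Cd79a gates. Scrublet scores (scanpy 1.11.5, expected share 8%) were used only in an alternative, because its own threshold marked no or almost no barcodes in 3 of 4 libraries.

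UMIs were summed per gate and library as CPM, with exact Poisson intervals; shares have Clopper-Pearson intervals. Log2 ratios carry 1 CPM, which understates changes of low genes. The ranking of further genes in the high SI cells carries 5 CPM and took genes of at least 50 UMIs. Between libraries, genes were compared with at least 100 UMIs in the higher library. Within a library, genes were compared with at least 5 UMIs in the high cells, counted or expected from the other cells. Named were the 4 members, the highest and lowest of each list, and the 5 most alike genes by each correlation; single cells, and Klf1, Gata1, Bcl11a, Rhag, Mpo and Cpa3, were named after their values were seen. Some genes the rule names are not reported here. Ratios and thinning were tested on simulated data. The members and lists were chosen with earlier results of these data known. Python 3.11.15, numpy 2.4.6, scipy 1.17.1 and pandas 2.3.3 were used.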

Additional observations from a re-analysis of the deposited data

How the results depend on the processing

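The log2 ratio of the summed adult globins in SI over control erythroid gate cells was above 0 in 18 of 20 alternatives, and the 2 others were the median of per-cell CPM (0.0) and the removal of cells with 20 or more adult globin UMIs (−0.47), the latter chosen after seeing the data. Removing cells of 100 or more gave 0.0603, also chosen after seeing the data, and leaving out the top 1% of cells gave 1.79. The values were 3.29 without cells of a high Scrublet score, 2.95 with cells of several gates kept, 2.88 with looser and 3.29 with stricter gates, 2.90 with 10 CPM added, 3.27 as a mean over cells, 2.14 after thinning to 5000 UMIs, and 3.32 with maturation tertiles weighted alike. Subtracting the Elane gate gave 5.60 by UMIs, and, without 1 barcode (chosen after seeing the data), 3.29 by UMIs and 3.37 by CPM. Without cells of 20 or more, Hbb-bs turned to −0.24 and Hbb-bt to −0.62, and without those of 100 or more Hbb-bt turned to −0.58.

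Deleted over control was below 0 in 15 of 16 alternatives, at −1.09 after subtracting the Elane gate by UMIs (−3.41 by UMIs and −3.59 by CPM without the 1 control barcode), −1.98 with 10 CPM added and 0.0 for the median cell. SI over control in the Elane gate was −3.76, and −1.05 without the 1 control barcode. It was −4.07 without high Scrublet scores, and −2.29 with cells of several gates and other Elane cells of at least 3 Klf1 UMIs kept. It was −0.70 with looser gates, −4.12 with no pseudocount and −2.33 with 10 CPM added. As a mean over cells it was −2.20, for the median cell 0.0, without the top 1% −0.87 and after thinning −1.26. The cause of these shifts was not tested, except that the 1 barcode held most UMIs of that gate. Subtracting CPM of the whole Elane gate took the control below 0, and thinning left too few deleted cells, so both gave no value. The SI levels by tertile and the control level in barcodes under 1000 UMIs were also taken without their highest barcode, chosen after seeing the data. No paired analysis was possible because each group had 1 library.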

Other observations

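The 24 SI erythroid gate cells with 20 or more adult globin UMIs differed from the other 620 in further genes. The genes were picked for this difference, so it is a description. They were ranked by log2 ratios with 5 CPM added to each level, and the order depends on that amount, most for genes near 0. Homer1, Pccb, Rhag and Specc1 were among the 10 furthest above, with Specc1 at 133 against 42.3 CPM, Homer1 at 35.5 against 6.53 CPM and Pccb, a subunit of propionyl-CoA carboxylase, at 44.4 against 10.3 CPM. Apoe, which encodes a lipid carrier, was the furthest below on that scale, at 29.2 against 398 CPM. Control erythroid gate cells stood at 447 CPM of Apoe. Camp and Ngp, granule genes of late neutrophils, were at 1.27 and 0 CPM against 57.0 and 39.4 CPM, and Fcer1a, the mast cell IgE receptor subunit, at 0 against 36.6 CPM. In control erythroid gate cells these 3 genes stood at 4.70, 6.15 and 1.54 CPM. Others of the 10 genes furthest below had control levels nearer to the other SI cells, as Lgals1 did, at 11.4 CPM in the high and 87.8 CPM in the other SI cells and 130.5 CPM in control cells.

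Cells with Hbb-bt and no Hbb-bs occurred outside the erythroid gates too. In the SI library 2 cells of the Cpa3 gate (at least 10 UMIs of the mast cell protease Cpa3) held 45 UMIs of Hbb-bt and 0 of the other 3 genes. Over all 2516 cells of that gate, Hbb-bs was at 2.42 CPM and Hbb-bt at 4.65 CPM.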
